A study of Mus musculus with 4 samples.

Results

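The V and J segments that build the T cell receptor alpha chain were counted in hepatic CD4 T cells of mice with diet-induced steatohepatitis. Every V and J name of a TRA contig (an assembled alpha chain sequence) was a member of the set, and each cell gave the contig with the most UMIs, a UMI being a tag that counts 1 molecule once. The contigs named 85 Trav and 43 Traj segments, together 128 of the 162 V and J segments named by all alpha and beta chain contigs. Each was counted by cells and by clonotypes, in cells with and without a Foxp3 UMI. They came from 2564 of 10602 cells of a library labelled WT and 3227 of 17645 cells of a library labelled dKO.

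The dKO mice lacked Nr4a1 and Nr4a2 in T cells, through Cd4-Cre acting on floxed alleles of both genes, and the WT mice did not. Male mice of both genotypes ate a choline-deficient, high-fat diet with 60 kcal% fat and 0.1% methionine. Sorted hepatic CD4 T cells of 2 mice were pooled per genotype, and each pool gave 1 library of 5′ single-cell RNA and 1 of receptor sequences. With 1 library per genotype there was no replicate, so no test was made. Intervals in parentheses are exact 95% intervals (Clopper-Pearson for shares) and cover counting error only.

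Over all cells of the RNA tables, RNA of the targeted genes was higher in the dKO-labelled library, while its label names their loss in T cells. The tables also hold cells without a contig and cells other than T cells, and the values were not taken over T cells alone. Nr4a1 stood at 724 CPM (counts scaled to the same library total) in the WT-labelled and 1656 CPM in the dKO-labelled library, and Nr4a2 at 183 and 306 CPM. The counts do not show whether these transcripts held the deleted exons, so the libraries are named by their labels throughout. In cells with a TRA contig, Foxp3 had a UMI in 8.07% and 34%, with the WT-labelled library first here and below, and Il10, a cytokine gene that Treg cells can express, in 1.56% and 17.2%. Of the same cells, 84.6% and 86.6% had a UMI of Cd3e, a subunit of the receptor complex, and 45% and 74.2% one of Cd4. Of the CD8 chains, Cd8a was found in 0.078% and 0.341% and Cd8b1 in 2.61% and 5.08%, against 6.73% and 12% for Cd8b1 in cells without a contig, and Trdc, the constant gene of gamma-delta T cells, in 0.273% and 0.496%. At least 2 UMIs of Lyz2 or Siglech, markers of myeloid and plasmacytoid dendritic cells, were found in 4.91% and 7.56%. The libraries shared 29 barcodes with contigs, 14 of them with a TRA contig in both, and 0 of the 14 had the same alpha rearrangement.

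In the thymus the alpha chain gene is assembled by joining 1 Trav to 1 Traj segment. The locus holds all Trav segments first, then all Traj segments, then the constant gene Trac, and a cell can join the same allele again, each time with a Trav farther upstream and a Traj farther downstream. Segment ends are trimmed and bases added without a template, and this junction forms the centre of the CDR3, the loop that contacts the peptide. Most alpha chains differ from cell to cell, but Trav11 joined to Traj18 forms the invariant chain of iNKT cells, which see lipids on CD1d and are common in mouse liver, and Trav1 joined to Traj33 that of MAIT cells, which see vitamin B metabolites on MR1.

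The locus lies on the forward strand of chromosome 14. In the GENCODE annotation of build GRCm38 (mm10), Trav segments occupy chr14:52427928-53977678, Traj segments chr14:54155005-54218842 and Trac chr14:54220521-54224206. Contigs named 85 of 128 annotated Trav and 43 of 60 annotated Traj genes. Of the genes without a contig, 20 of 43 Trav and 9 of 17 Traj were annotated as pseudogenes, and none of the named segments was.

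The invariant chain is shown first, because its 2 germline ends leave almost nothing to add at the junction. Trav11 lies at chr14:53519303-53519859 and Traj18 at chr14:54200777-54200842. The germline ends run from the codon of the conserved cysteine and up to the codon of the conserved phenylalanine, and the 4 most frequent CDR3 sequences follow, 5′ to 3′, with capitals for bases matched by neither germline end.

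Trav11 germline end: tgtgtggtgggcg

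Traj18 germline start: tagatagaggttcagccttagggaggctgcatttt

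Trav11-Traj18 variant 1: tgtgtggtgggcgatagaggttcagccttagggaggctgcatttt

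Trav11-Traj18 variant 2: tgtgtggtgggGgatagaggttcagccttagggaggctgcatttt

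Trav11-Traj18 variant 3: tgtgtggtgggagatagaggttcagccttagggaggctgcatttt

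Trav11-Traj18 variant 4: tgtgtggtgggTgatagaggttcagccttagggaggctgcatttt

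The 4 variants are identical except at base 12, counted from 1 at the start of the CDR3. Variant 1 was found in 15 and 24 clonotypes, variant 2 in 17 and 13, variant 3 in 9 and 10 and variant 4 in 5 and 6. They made up 46 of 54 and 53 of 60 Trav11-Traj18 clonotypes, and all 54 and 60 had a CDR3 of 45 bases.

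The leading expanded rearrangements are shown next, because shares of cells depended on them. A clonotype was the Trav, Traj and CDR3 nucleotide sequence of the alpha chain with the beta chain CDR3, left blank for a cell without a TRB contig. Capitals have the same meaning.

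Trav7d-5 Traj39, WT-labelled: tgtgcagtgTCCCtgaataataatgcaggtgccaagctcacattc

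Trav4-4-dv10 Traj34, WT-labelled: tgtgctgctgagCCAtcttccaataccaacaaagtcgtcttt

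Trav14-2 Traj42, WT-labelled: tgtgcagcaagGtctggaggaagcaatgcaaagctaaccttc

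Trav6-1 Traj30, dKO-labelled: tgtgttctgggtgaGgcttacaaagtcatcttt

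Trav6-7-dv9 Traj49, dKO-labelled: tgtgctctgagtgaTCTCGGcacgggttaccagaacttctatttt

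The Trav6-1 Traj30 rearrangement was found in 396 cells, 12.3% of the cells with a TRA contig in the dKO-labelled library. Of these, 282 shared 1 TRB contig, of Trbv13-1 with Trbj2-4, and 113 had no TRB contig and counted as another clonotype. The largest of the WT-labelled library, Trav7d-5 with Traj39, was found in 83 cells (3.24%), Trav4-4-dv10 with Traj34 in 77 (3.003%) and Trav14-2 with Traj42 in 43 (1.68%).

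Counted by clonotypes, usage was broad in both libraries. The cells formed 1709 and 1813 clonotypes with 1463 and 1468 alpha rearrangements. The effective number of equally used segments (inverse Simpson index, corrected for sample size) was 48.4 and 44.7 for Trav and 33.6 and 31.4 for Traj. The 10 leading Trav segments held 34.3% and 37.7% of clonotypes, and the 10 leading Traj segments 39.96% and 43.9%.

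The most used Trav segments over both libraries were Trav4-4-dv10, Trav6n-7, Trav13d-2, Trav7d-2, Trav11, Trav7-5, Trav6-6, Trav4d-4, Trav13-1 and Trav10. Trav4-4-dv10 took 79 clonotypes, 4.62% (3.68 to 5.73), in the WT-labelled library and 73, 4.03% (3.17 to 5.04), in the dKO-labelled one. Trav6n-7 took 4.45% (3.52 to 5.53) and 3.92% (3.07 to 4.91), and Trav13d-2 3.63% (2.79 to 4.63) and 4.58% (3.66 to 5.64). For each of these 3 segments the intervals of the libraries overlapped. Trav7-5 was the 1 of the 10 whose intervals lay apart, with 37 clonotypes, 2.17% (1.53 to 2.97), against 80, 4.41% (3.51 to 5.46). Among all 85 Trav segments, the others with intervals apart were Trav21-dv12, Trav5d-4, Trav14-2 and Trav10n.

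**Figure D1:**
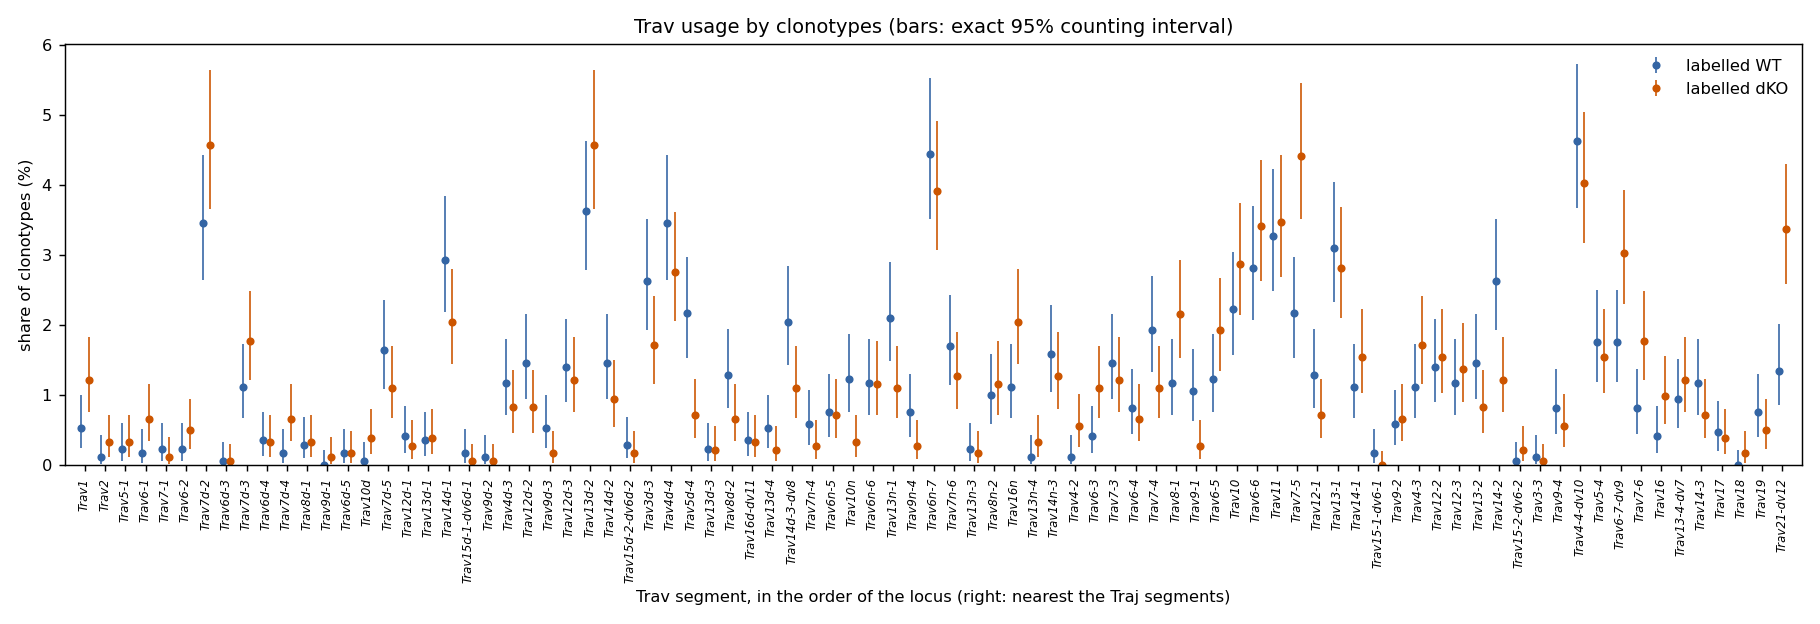
Share of clonotypes (%) that used each of 85 Trav segments, in the order of the locus from left to right, in the WT-labelled library (blue, 1709 clonotypes) and the dKO-labelled library (orange, 1813 clonotypes). Points are the share in 1 library and bars its exact 95% counting interval. Trav7-5 and Trav21-dv12 have intervals that lie apart with the orange points higher, and Trav5d-4, Trav14-2 and Trav10n with the blue points higher, while Trav11 stands at 3.28% and 3.47%.

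Many Trav segments had shares that differed between the libraries by more than a fixed fold. Of segments with at least 20 clonotypes over both libraries, 27 of 54 Trav segments (12 higher, 15 lower) had dKO-labelled shares at least 1.5-fold from the WT-labelled ones. The same was true of 36.7% of all 128 Trav, Traj, Trbv and Trbj segments with that minimum (15.6% higher, 21.1% lower). Most of these 128 are the Trav and Traj segments themselves. Of the beta chain segments alone, 4 of 21 Trbv and 1 of 12 Trbj segments were past the fold. A Trav segment has few clonotypes, so counting error alone moves its ratio more than that of a Trbv or Trbj segment, and its part in the count was not tested. Across the 85 Trav segments the shares of the libraries had Pearson's r = 0.83 and Spearman's rho = 0.82, a description over segments counted in the same pair of libraries.

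The highest dKO-labelled over WT-labelled ratios were those of Trav6-3, Trav21-dv12, Trav16, Trav1 and Trav7-6. Trav21-dv12, the last Trav before the Traj segments among those named, had 23 clonotypes, 1.35% (0.855 to 2.01), and 61, 3.36% (2.58 to 4.3), a ratio of 2.5 (1.52 to 4.23). Trav6-3 had 7 and 20 clonotypes (ratio 2.69, 1.09 to 7.54), Trav16 7 and 18 (ratio 2.42, 0.966 to 6.87), Trav1 9 and 22 (ratio 2.3, 1.02 to 5.68) and Trav7-6 14 and 32 (ratio 2.15, 1.12 to 4.37). Of the 5, the interval of Trav16 included a ratio of 1. Counted by alpha rearrangement alone, Trav1 had 7 and 12 and Trav7-6 14 and 24, a ratio of 1.71 for each. The ratios of Trav21-dv12, Trav6-3 and Trav16 by that count were 2.24, 2.82 and 2.14.

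The lowest ratios were those of Trav9-1, Trav10n, Trav5d-4, Trav14-2 and Trav8d-2. Trav5d-4 had 37 clonotypes, 2.17% (1.53 to 2.97), and 13, 0.717% (0.382 to 1.22), a ratio of 0.331 (0.162 to 0.638). Trav9-1 had 18 and 5 (ratio 0.262, 0.076 to 0.732), Trav10n 21 and 6 (ratio 0.269, 0.0889 to 0.69), Trav14-2 45 and 22 (ratio 0.461, 0.264 to 0.784) and Trav8d-2 22 and 12 (ratio 0.514, 0.232 to 1.09). Of the 5, the interval of Trav8d-2 included a ratio of 1. All 10 segments were picked as extremes of 54, and picking extremes by itself favours ratios that counting error moved far from 1.

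Near-identical copies limit what a Trav name can say. The mouse locus holds duplicated stretches, whose copies carry names with d or n, and 57 of the 85 segments had an annotated copy at least 97% identical in germline sequence, 19 of them an identical one. Names that differ only in d or n were then counted as 1, which also joins copies less alike than that, such as Trav8d-2 (94.4% identical to its nearest copy) and Trav16d-dv11 (92.6%). In this grouping, 13 of 34 Trav groups were past 1.5-fold, beside 30.6% of all 108 segments, so the Trav share was closer to that of all segments than before merging. Trav21-dv12 and Trav1 stood alone in this grouping and so had the same ratios. Trav7-5, not among the 10 segments picked as extremes but with intervals apart above, had 65 and 100 clonotypes with its copy Trav7d-5. That is a ratio of 1.45 (1.05 to 2.01), within 1.5-fold. Trav6-3 with its copy had 8 and 21 clonotypes (ratio 2.47, 1.05 to 6.46) and Trav9-1 with its copy 18 and 7 clonotypes (ratio 0.367, 0.129 to 0.92). Trav14-2 with its copy had 70 and 39 clonotypes (ratio 0.525, 0.346 to 0.788), Trav5-4 with Trav5d-4 67 and 41 clonotypes (ratio 0.577, 0.381 to 0.863) and Trav16 with its copies 32 and 61 clonotypes (ratio 1.8, 1.15 to 2.85). Trav10 with its copies, Trav10n among them, had 60 and 65 clonotypes (ratio 1.02, 0.708 to 1.48), Trav7-6 with its copy 43 and 55 clonotypes (ratio 1.21, 0.794 to 1.84) and Trav8d-2 with its copy 39 and 33 clonotypes (ratio 0.798, 0.486 to 1.3), so of the 10 segments Trav10n, Trav7-6 and Trav8d-2 had copy groups within 1.5-fold. By whole families, Trav14 took 12.9% and 8.83% (ratio 0.682, 0.553 to 0.84) of clonotypes, Trav9 3.86% and 2.1% (ratio 0.543, 0.354 to 0.821) and Trav6 14.4% and 17.7% (ratio 1.23, 1.04 to 1.45). Trav5 (ratio 0.624, 0.422 to 0.915) and Trav7 (ratio 1.2, 1.01 to 1.41) also had intervals without 1, as had Trav1, Trav16 and Trav21 with the ratios given above. For the rest of the 17 families with at least 20 clonotypes the intervals included 1.

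The Traj segments most used over both libraries were Traj31, Traj18, Traj34, Traj22, Traj27, Traj23, Traj37, Traj49, Traj42 and Traj30. Traj31 took 93 clonotypes, 5.44% (4.41 to 6.63), and 117, 6.45% (5.37 to 7.68). Traj18 took 91, 5.32% (4.31 to 6.5), and 94, 5.18% (4.21 to 6.31). Trav11 was its partner in 54 of the 91 and 60 of the 94 clonotypes, and without the Trav11-Traj18 pair Traj18 took 2.24% (1.58 to 3.07) and 1.94% (1.35 to 2.7) of the rest.

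**Figure D2:**
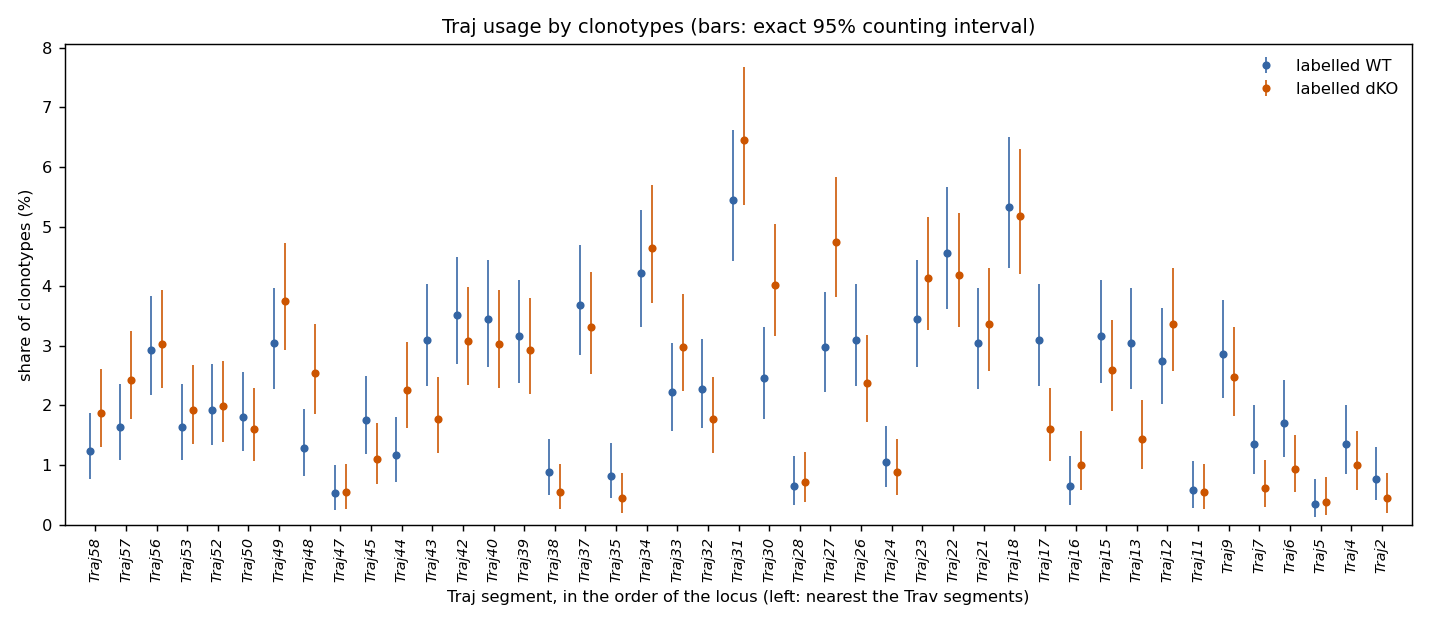
Share of clonotypes (%) that used each of 43 Traj segments, in the order of the locus from the Trav side (left) to the Trac side (right), in the WT-labelled library (blue) and the dKO-labelled library (orange). Points are the share in 1 library and bars its exact 95% counting interval. Traj31 stands highest in both, at 5.44% and 6.45%, and on the right the blue points of Traj17, Traj13 and Traj7 lie above the orange ones.

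By the same minimum, 15 of 41 Traj segments (6 higher, 9 lower) were past 1.5-fold, beside 36.7% of all segments, which include them. Of the beta chain segments, 4 of 21 Trbv and 1 of 12 Trbj segments were. The highest ratios were those of Traj48 with 22 and 46 clonotypes (ratio 1.97, 1.16 to 3.44), Traj44 with 20 and 41 (ratio 1.93, 1.11 to 3.48), Traj30 with 42 and 73 (ratio 1.64, 1.11 to 2.46), Traj27 with 51 and 86 (ratio 1.59, 1.11 to 2.29) and Traj16 with 11 and 18 (ratio 1.54, 0.69 to 3.61). The lowest were those of Traj7 with 23 and 11 (ratio 0.451, 0.198 to 0.963), Traj13 with 52 and 26 (ratio 0.471, 0.282 to 0.769), Traj17 with 53 and 29 (ratio 0.516, 0.316 to 0.826), Traj35 with 14 and 8 (ratio 0.539, 0.196 to 1.38) and Traj6 with 29 and 17 (ratio 0.553, 0.285 to 1.04). Traj7, Traj13, Traj17 and Traj6, and of the highest Traj16, belong to the 14 Traj segments nearest Trac, Traj21 to Traj2. Of the 14, 10 had a lower share in the dKO-labelled library and 4, Traj21, Traj16, Traj12 and Traj5, a higher one. The median ratio over all 41 Traj segments with the minimum was 0.925, so most of the 41 also had a lower share there. These 14 together took 513 clonotypes, 30.02% (27.9 to 32.3), in the WT-labelled library and 452, 24.9% (23 to 27), in the dKO-labelled one, and these intervals do not overlap. Counted by alpha rearrangement alone, 8 of 37 Traj segments were past 1.5-fold, beside 29.5% of all 122 segments with beta chains also counted by rearrangement alone.

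The places of the Trav and the Traj of 1 rearrangement were related. With both ranked along the locus, their ranks had Spearman's rho = -0.41 over 1709 clonotypes and -0.46 over 1813, as a description, since the clonotypes of a library come from the same pooled mice. The 28 Trav segments nearest the Traj side (Trav10 to Trav21-dv12) had a mean Traj rank of 16.6 ± 10.1 (SD, n = 676 clonotypes) and 16 ± 10.4 (n = 818). The middle 28 (Trav4d-4 to Trav6-5) had 25.5 ± 9.81 (n = 599) and 24.2 ± 9.4 (n = 526). The 29 farthest (Trav1 to Trav3d-3) had 25.6 ± 10.6 (n = 434) and 25.5 ± 9.76 (n = 469). The nearest set thus stood apart from the other two, and the middle and farthest sets stood close to each other.

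Single segments are given as examples of either end, chosen after their values were seen. Trav21-dv12 was joined to one of the 15 Traj segments nearest the Trav side (Traj58 to Traj39) in 22 of 23 clonotypes, 95.7% (78.1 to 99.9), and in 56 of 61 clonotypes, 91.8% (81.9 to 97.3). Trav5-4 was so joined in 24 of 30 clonotypes, 80% (61.4 to 92.3), and 22 of 28 clonotypes, 78.6% (59 to 91.7). Trav4-4-dv10 was so joined in 51 of 79 clonotypes, 64.6% (53 to 75), and 51 of 73 clonotypes, 69.9% (58 to 80.1). These 3 belong to the set nearest the Traj side. Trav11 belongs to the same set and went the other way, with 0 of 56 clonotypes, 0% (0 to 6.38), and 2 of 63 clonotypes, 3.17% (0.387 to 11), joined to those 15, and nearly all its clonotypes used Traj18, one of the 14 nearest Trac. Far upstream, Trav7d-2 was joined to the same 15 in 11 of 59 clonotypes, 18.6% (9.69 to 30.9), and 10 of 83 clonotypes, 12% (5.93 to 21), and Trav4d-4 in the middle set in 5 of 59 clonotypes, 8.47% (2.81 to 18.7), and 9 of 50 clonotypes, 18% (8.58 to 31.4). After Trav11 with Traj18, the pair with most clonotypes in the dKO-labelled library was Trav21-dv12 with Traj56, with 16 clonotypes from 8 alpha rearrangements. The relation depends on which copy a contig is named for, and with each duplicated Trav given the place of its copy nearest the Traj segments, rho was -0.175 and -0.288.

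**Figure D3:**
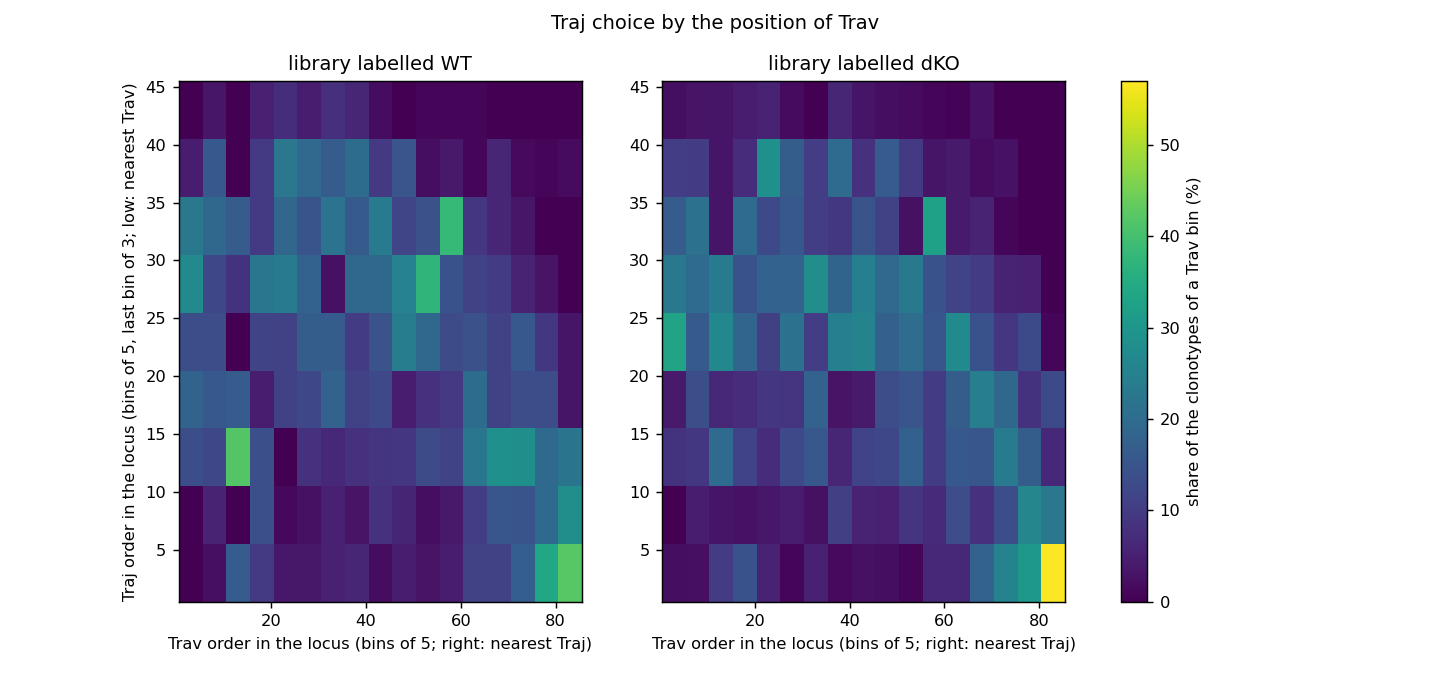
Traj choice by the place of the Trav segment, in each library. The x axis is the order of 85 Trav segments in bins of 5 (right: nearest the Traj segments), the y axis the order of 43 Traj segments in bins of 5 (low: nearest the Trav segments), and the colour the share (%) of the clonotypes of a Trav bin that fell in a Traj bin. The last Trav bin used the first Traj bin in 42.2% and 57% of its clonotypes.

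Counted by cells, the libraries stood further apart than by clonotypes. Of segments with at least 20 cells, 36 of 60 Trav segments (12 higher, 24 lower) and 23 of 42 Traj segments (9 higher, 14 lower) were past 1.5-fold, beside 52.9% of all 136 Trav, Traj, Trbv and Trbj segments with that minimum (19.9% higher, 33.1% lower). Pearson's r across segments was 0.36 for Trav and 0.32 for Traj by cells, where it was 0.83 and 0.86 by clonotypes. Spearman's rho, which single outlying segments move less, was 0.73 and 0.75 by cells and 0.82 and 0.82 by clonotypes. The effective number by cells was 38 and 26.3 Trav and 29.3 and 20.2 Traj.

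In percentage points of cells, the widest gaps, those of Traj30 and Trav6-1, held 1 large rearrangement. By ratio, the lowest Trav segment was Trav9-1, with 23 and 5 cells (ratio 0.173, 0.0513 to 0.465). Trav6-1 was in 3 cells, 0.117% (0.0241 to 0.342), of the WT-labelled and 406, 12.6% (11.5 to 13.8), of the dKO-labelled library, but in 3 and 12 clonotypes. The rearrangement with Traj30 shown above made up 396 of the 406. Traj30 was in 50 cells, 1.95% (1.45 to 2.56), and 524, 16.2% (15 to 17.6), the same 396 among them. Trav6-7-dv9 was in 35 and 158 cells, 72 of the latter from its rearrangement with Traj49, and Trav16n in 21 and 100, 48 of the latter from 1 rearrangement with Traj6. Trav13d-2 was in 102 and 264 cells, and its 3 largest dKO-labelled rearrangements, with Traj17, Traj13 and Traj30, held 44, 40 and 39 cells.

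On the WT-labelled side, Trav7d-5 was in 110 cells, 4.29% (3.54 to 5.15), and 25, 0.775% (0.502 to 1.14), and its rearrangement with Traj39 made up 83 of the 110. Trav4-4-dv10 was in 226 cells, 8.81% (7.75 to 9.98), and 103, 3.19% (2.61 to 3.86). Trav14-2 was in 97 and 35 cells, 43 of the former with Traj42. With the 10 largest clonotypes of each library left out, 35 of 59 Trav and 17 of 42 Traj segments were past 1.5-fold by cells, beside 46.7% of all 135 segments.

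**Figure D4:**
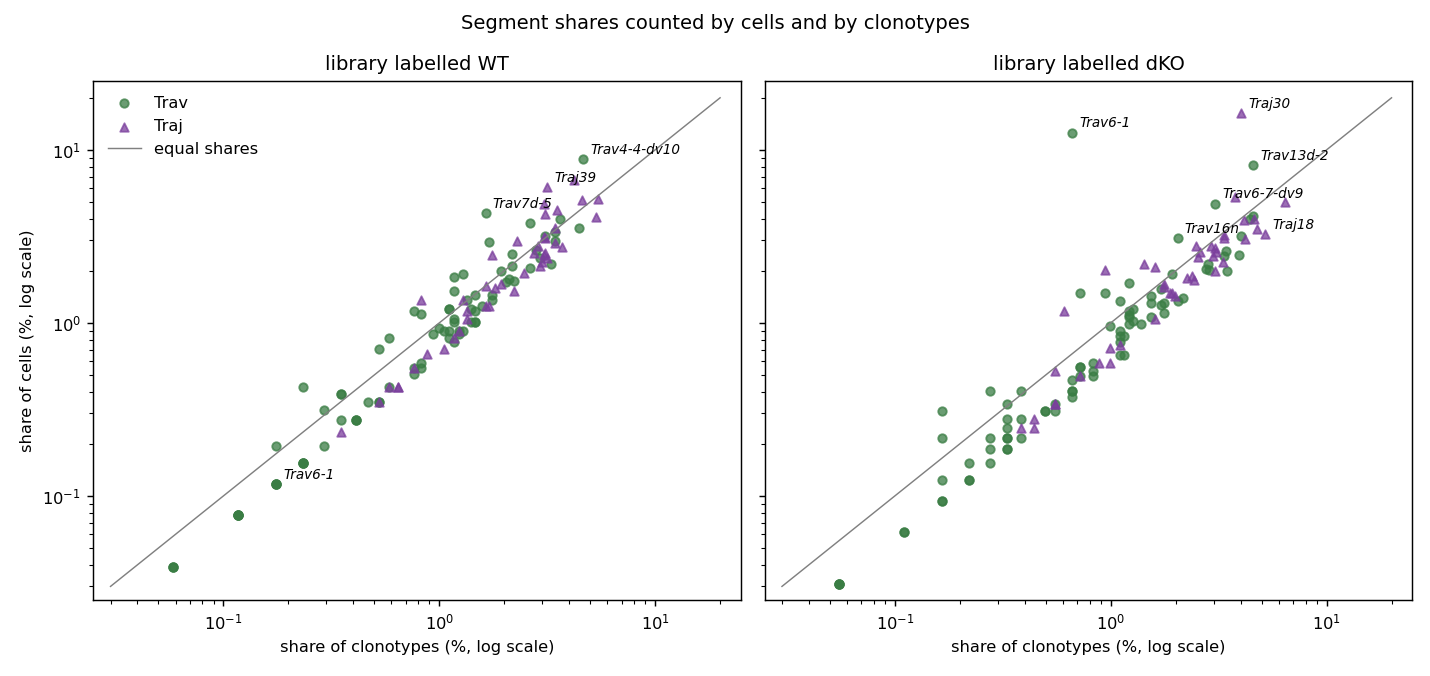
Share of cells (%, log scale) against share of clonotypes (%, log scale) for each Trav (green circles) and Traj (purple triangles) segment with at least 1 cell, in each library, with a grey line at equal shares. In the dKO-labelled library Trav6-1 lies far above the line, at 12.6% of cells and 0.662% of clonotypes, and Traj30 at 16.2% and 4.03%. Trav7d-5 lies above it in the WT-labelled library, at 4.29% and 1.64%.

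Cells with and without a UMI of Foxp3, the transcription factor that defines regulatory T cells, were then compared within each library. A Foxp3 UMI was found in 207 cells with a TRA contig, 8.07% (7.05 to 9.2), and in 1097, 34% (32.4 to 35.7). As background, cells with at least 5 Lyz2 UMIs and no contig had one in 2.91% (1.08 to 6.23) and 10.7% (7.52 to 14.6), at a median of 1935 and 3806 RNA UMIs. Cells with a Foxp3 UMI were deeper than those without, at a median of 3318 against 2309 RNA UMIs in the WT-labelled and 2234 against 1677 in the dKO-labelled library. Ikzf2, which encodes the Treg-associated factor Helios, had a UMI in 69.6% of the former against 16.2% of the latter, and 79.3% against 48.4%. The cells formed 197 and 661 clonotypes with and 1538 and 1300 without a Foxp3 UMI, and 26 and 148 clonotypes had cells of both kinds and counted in each.

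Trav11 had the lowest ratio of cells with over cells without a Foxp3 UMI, in both libraries. In the WT-labelled library it was in 1 of 197 clonotypes with a Foxp3 UMI, 0.508% (0.0129 to 2.8), and 55 of 1538 without, 3.58% (2.71 to 4.63), a ratio of 0.142 (0.00353 to 0.825). In the dKO-labelled library it was in 2 of 661, 0.303% (0.0367 to 1.09), and 61 of 1300, 4.69% (3.61 to 5.99), a ratio of 0.0645 (0.00764 to 0.243). The share intervals lay apart in the dKO-labelled library and overlapped slightly in the WT-labelled one.

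Traj18 went with its partner. It was in 2.54% (0.829 to 5.82) of clonotypes with and 5.66% (4.56 to 6.93) without a Foxp3 UMI in the WT-labelled library, and in 2.27% (1.28 to 3.72) and 6.31% (5.05 to 7.77) in the dKO-labelled one. With the Trav11-Traj18 clonotypes set aside, the shares were 2.54% and 2.22%, and 1.97% (1.05 to 3.35) and 1.93% (1.24 to 2.86). Outside the invariant pair the shares of Traj18 thus stood close to each other, on 5 and 13 clonotypes with a Foxp3 UMI.

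In the WT-labelled library, 19 of 40 Trav segments (9 higher, 10 lower) and 12 of 34 Traj segments (4 higher, 8 lower) were past 1.5-fold between cells with and without a Foxp3 UMI, beside 35.5% of all 107 Trav, Traj, Trbv and Trbj segments with that minimum (15.9% higher, 19.6% lower). Trav4-3 had the highest ratio, with 7 and 13 clonotypes with and without (ratio 4.2, 1.42 to 11.3), then Trav16n with 5 and 15 (ratio 2.6, 0.74 to 7.53) and Trav8-1 with 4 and 16 (ratio 1.95, 0.475 to 6.05). Among Traj segments, Traj4 had 5 and 18 (ratio 2.17, 0.629 to 6.06), Traj17 10 and 44 (ratio 1.77, 0.796 to 3.58) and Traj6 5 and 24 (ratio 1.63, 0.485 to 4.35). With at least 2 Foxp3 UMIs required, the ratios of Traj4 and Traj6 were 0.971 and 0.728, on the other side of 1. The low end after Trav11 rested on 1 clonotype each with a Foxp3 UMI, for Trav5-4, Trav12-1, Traj53, Traj7 and Traj48.

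In the dKO-labelled library, 12 of 39 Trav segments (5 higher, 7 lower) and 11 of 33 Traj segments (5 higher, 6 lower) were past 1.5-fold, beside 25.2% of all 103 Trav, Traj, Trbv and Trbj segments with that minimum (10.7% higher, 14.6% lower). The highest ratios among Trav segments were those of Trav12d-3 with 12 and 12 clonotypes with and without a Foxp3 UMI (ratio 1.97, 0.808 to 4.79), Trav1 with 14 and 15 (ratio 1.84, 0.821 to 4.08) and Trav7d-3 with 17 and 20 (ratio 1.67, 0.822 to 3.36). Traj9 had the highest of the Traj segments, with 4.08% (2.71 to 5.89) and 2% (1.31 to 2.92), a ratio of 2.04 (1.15 to 3.64), and in the WT-labelled library it stood at 3.55% (1.44 to 7.18) and 2.73% (1.98 to 3.67). Traj26 had 21 and 25 clonotypes (ratio 1.65, 0.879 to 3.07) and Traj6 9 and 11 (ratio 1.61, 0.589 to 4.27), which turned to 0.958 with at least 2 Foxp3 UMIs. Low ratios after Trav11 were those of Traj45 with 2 and 19 (ratio 0.207, 0.0234 to 0.858), Trav7d-5 with 3 and 17 (ratio 0.347, 0.0652 to 1.2), Traj32 with 6 and 27 (ratio 0.437, 0.148 to 1.08) and Trav7-4 with 4 and 17 (ratio 0.463, 0.113 to 1.42). Intervals of most of these ratios included 1, those of Traj9 and Traj45 did not. The intervals take clonotypes as separate counts, though some counted on both sides and some shared 1 alpha rearrangement. Trav1 had 22 clonotypes in all in this library, and 1 alpha rearrangement held 30 of its 55 cells. Traj23 is added because its share intervals lay apart, which was seen after its values were known. It took 2.27% (1.28 to 3.72) with and 4.92% (3.81 to 6.24) without a Foxp3 UMI, and 4.57% (2.11 to 8.5) and 3.32% (2.48 to 4.34) in the WT-labelled library.

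**Figure D5:**
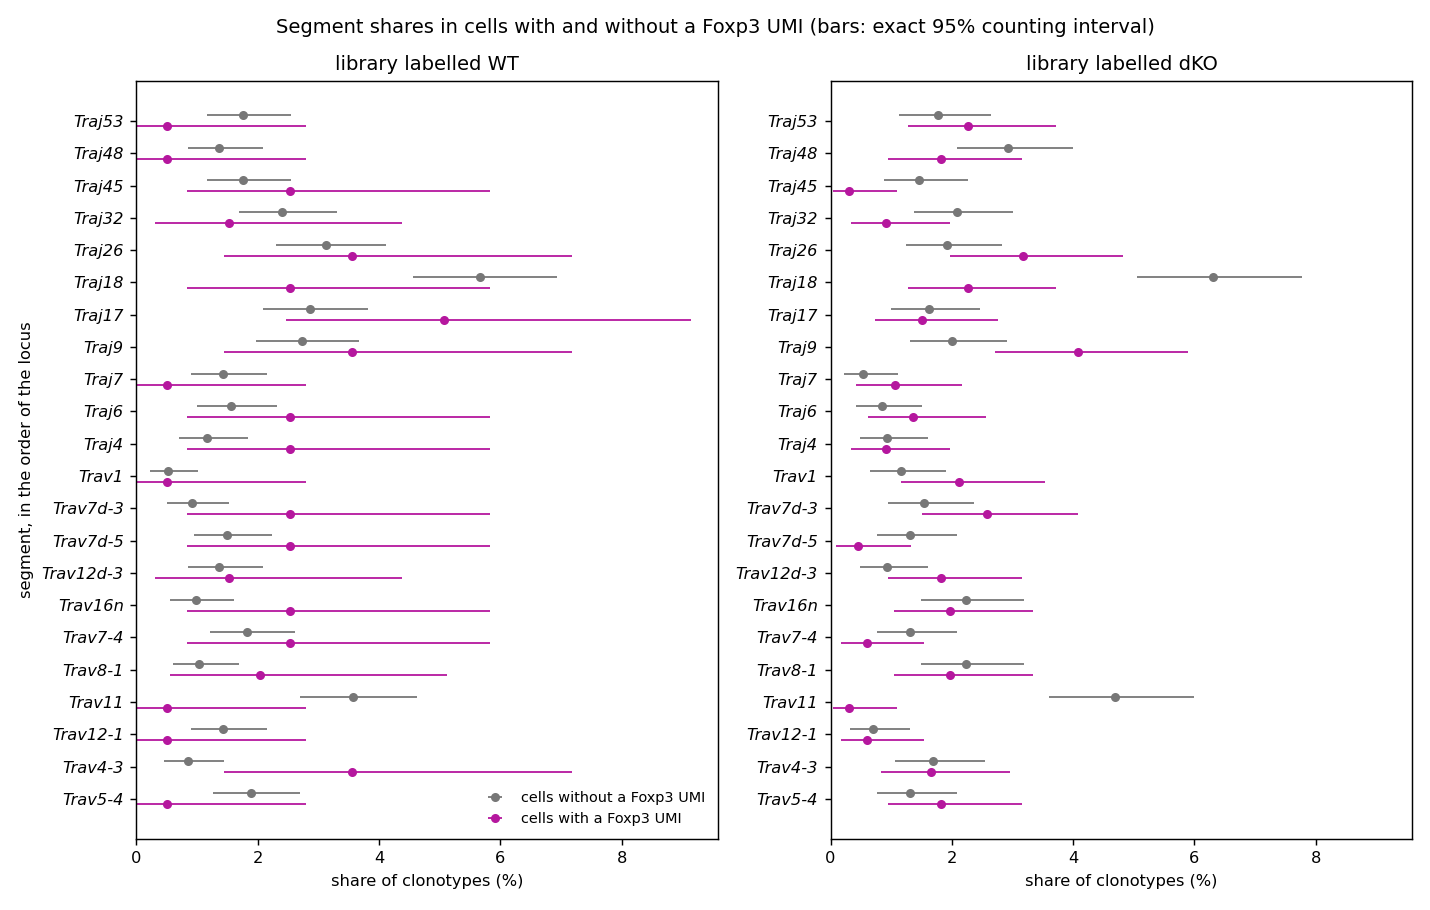
Share of clonotypes (%) in cells with (magenta) and without (grey) a Foxp3 UMI, in each library, for the segments with the 3 highest or 3 lowest ratios of either kind in either library. Points are shares and bars exact 95% counting intervals. In the dKO-labelled library the magenta points of Trav11 (0.303%) and Traj18 (2.27%) lie below the grey ones (4.69% and 6.31%) without overlap.

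By cells, several of the expanded dKO-labelled rearrangements held cells with and cells without a Foxp3 UMI. At these depths a cell without a Foxp3 UMI can still express Foxp3, so the split does not show that a rearrangement held Treg and other cells. In that library Ctla4, a gene that Treg cells express, had a UMI in 91.7% of cells with and 69.3% of cells without a Foxp3 UMI. Trav6-1 was in 15.2% of cells with and 11.2% of cells without a Foxp3 UMI, and Traj30 in 19.1% and 14.7%. Of the cells with the Trav6-1 Traj30 rearrangement, 163 of 396 (41.2%) had a Foxp3 UMI, of Trav6-7-dv9 Traj49 29 of 72, of Trav13d-2 Traj17 28 of 44 and of Trav16n Traj6 5 of 48. The last is a share like that of the myeloid background, whose cells were deeper, at a median of 3806 RNA UMIs against 1811 in all dKO-labelled cells with a TRA contig. Trav14d-2 Traj23, also among the largest, had one in 0 of 30 cells, and its leading clonotype in 0 of 26 (0 to 13.2%). In the WT-labelled library the leading Trav7d-5 Traj39 clonotype had one in 0 of its 70 cells (0 to 5.13%) and Trav4-4-dv10 Traj34 in 1 of 54. Cells per clonotype came to 1.05 with and 1.53 without a Foxp3 UMI in the WT-labelled, and 1.66 and 1.64 in the dKO-labelled library. By cells, 26 of 48 Trav segments (12 higher, 14 lower) and 13 of 35 Traj segments (5 higher, 8 lower) were past 1.5-fold in the WT-labelled library, beside 43.1% of all 116 Trav, Traj, Trbv and Trbj segments with that minimum (20.7% higher, 22.4% lower). In the dKO-labelled library 11 of 42 Trav segments (2 higher, 9 lower) and 11 of 34 Traj segments (4 higher, 7 lower) were, beside 26.9% of all 108 Trav, Traj, Trbv and Trbj segments with that minimum (6.48% higher, 20.4% lower). With each cell thinned to 1000 UMIs, the dKO-labelled Trav count was 19 of 40 and the Traj count 11 of 34, beside 34.9% of all 106 segments.

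The invariant iNKT chain was found at like shares in the libraries. Trav11 with Traj18 was in 54 cells, 2.11% (1.59 to 2.74), and 61, 1.89% (1.45 to 2.42), with 12 and 9 alpha rearrangements. It made up 54 clonotypes, 3.16% (2.38 to 4.1), and 60, 3.31% (2.53 to 4.24), so nearly every cell had a clonotype of its own. A Foxp3 UMI was in 0 of 54 (0 to 6.6%) and 2 of 61 (0.3996 to 11.3%) of these cells, which is no higher than in the myeloid background of each library. The depths were unlike, with a median of 1935 and 3806 RNA UMIs in the myeloid cells and 2572 and 2080 in these cells.

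RNA of the cells with the invariant chain set them apart from other cells with a TRA contig. Zbtb16, which encodes PLZF, the factor that directs innate-like T cells, had a UMI in 48.1% (34.3 to 62.2) and 34.4% (22.7 to 47.7) of them, against 1.27% and 1.2% of the other cells with a TRA contig. Xcl1, a chemokine gene, had one in 53.7% (39.6 to 67.4) and 52.5% (39.3 to 65.4) of them, against 12.2% and 3.03% of the other cells with a TRA contig. Klrb1c, which encodes NK1.1, had one in 14.8% (6.62 to 27.1) and 29.5% (18.5 to 42.6) of them, against 1.39% and 0.569% of the other cells with a TRA contig. All 3 were more frequent in cells with the chain than in the others, in each library. Cd4 went the other way, with a UMI in 13% (5.37 to 24.9) and 36.1% (24.2 to 49.4) of them, against 45.7% and 75% of the other cells with a TRA contig. The median RNA depth was 2572 and 2080 UMIs in cells with the chain and 2350 and 1806 in the others.

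Of 5 partner Trbv segments measured, Trbv13-2 and Trbv29 had higher shares with the invariant chain in both libraries, with intervals above the share of other cells. Of cells with the invariant chain and a TRB contig, 28 of 51 (54.9%, 40.3 to 68.9) and 19 of 57 (33.3%, 21.4 to 47.1) used Trbv13-2, counted with a read-through name that joins it to Trbv12-2, against 12.5% and 8.58% of other cells. Trbv29 was used by 7 and 14 (13.7% and 24.6%), against 1.41% and 4.44%. Trbv13-1 was used by 4 and 7 (7.84%, 2.18 to 18.9, and 12.3%, 5.08 to 23.7), against 11.1% and 19.3%. Trbv13-3 was used by 0 and 5 (0%, 0 to 6.98, and 8.77%, 2.91 to 19.3), against 5.22% and 5.24%. Trbv1 was used by 6 and 6 (11.8%, 4.44 to 23.9, and 10.5%, 3.96 to 21.5), against 9.26% and 9.13%. For these 3 the intervals included the share of other cells in both libraries. The MAIT chain was rare. Trav1 with Traj33 was in 3 cells, 0.117% (0.0241 to 0.342), and 1 cell, 0.031% (0.000785 to 0.173), of 9 and 55 cells with Trav1, and 0 of the 4 had a Zbtb16 UMI.

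Few alpha rearrangements were common to the libraries. Of 2914, 17 were found in both, and 5 of these were Trav11 with Traj18. None of the 17 shared a beta chain or a cell barcode. Of the other 12, 6 held no base unmatched by the germline ends and 11 at most 3, against 14.2% and 64.8% of the 2897 found in 1 library. The 2 sequences that follow show the range among the 12, from 0 unmatched bases to 4, and both were seen in at most 2 cells of a library.

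Trav6n-7 Traj12: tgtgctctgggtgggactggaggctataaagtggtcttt

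Trav9n-4 Traj31: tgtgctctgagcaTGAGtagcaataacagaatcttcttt

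CDR3 length went with the Traj segment. Its mean was 40.7 ± 4.33 bases (SD, n = 1709 clonotypes) and 40.3 ± 4.08 (n = 1813), a gap far below the spread among clonotypes. Over the 41 Traj segments with at least 20 clonotypes, mean length ran from 36.6 (Traj31, 26 germline bases in the CDR3) to 44.3 (Traj18, 35), and across segments it followed the number of germline bases, with Pearson's r and Spearman's rho both 0.95, as a description. Among Trav segments Trav11 had the longest mean, 44.9 ± 0.613 bases (n = 119), and Trav13d-2 the shortest, 37.3 ± 3.87 (n = 145). Bases matched by neither germline end numbered 3.08 ± 3.62 and 2.94 ± 2.93 per clonotype, and 15.2% (13.5 to 17) and 16.6% (14.9 to 18.4) of clonotypes had none. An added base that equals the germline base by chance counts as matched, so the numbers of unmatched bases are minima and the shares with none are maxima.

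The RNA libraries gave another readout of the same segments. For Trav segments with a contig in at least 10 cells, a UMI of the named gene was more frequent in those cells than in cells with another Trav for 45 of 46 and 48 of 49 segments, with a median share of 90.9% and 87.5% against 0.708% and 0.564%. Where the nearest copy was under 97% identical, the lowest share was 80.0% over 16 segments and 66.7% over 19. Segments with an identical copy could be nearly without RNA counts. Trav11 (copy Trav11d) had a UMI in 2 of 56 cells and 4 of 64 cells, Trav4d-4 (copy Trav4n-4) in 0 of 76 cells and 1 of 66 cells, and Trav3d-3 (copy Trav3n-3) in 1 of 53 cells and 0 of 41 cells.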

How the data were processed

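Processed files were used as deposited. The authors made 5′ single-cell RNA and receptor libraries and processed them with Cell Ranger (7.0.1 per the file headers, genome build mm10), giving counts of UMIs per gene and cell and a table of filtered contigs with UMI and read counts. The V(D)J reference is not given in the sources used here. Scripts used Python 3.11.15, numpy 2.4.6, pandas 2.3.3, scipy 1.17.1 and matplotlib 3.10.9.

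Each cell gave its TRA contig with most UMIs. Names were matched to GENCODE M21, which also gave germline sequences and coordinates. Shares were compared for segments with at least 20 clonotypes or cells over both groups, and a ratio past 1.5-fold in either direction was counted. Named segments were the 10 most used, the 5 highest and lowest ratios between libraries, the 3 highest and lowest by Foxp3, and those at 5% of cells or more. The computations were tested on simulated data. The members and lists were chosen with earlier results of these data known.

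The TRA contigs used had a median of 4 and 5 UMIs, and 386 and 805 cells with one lacked a TRB contig. UMIs remove PCR copies, but the intervals leave out the spread between mice. All cells of the deposited tables were kept and no doublet caller was run. Likely doublets (over 1 TRB or over 2 TRA contigs, 155 and 87 cells) were left out as an alternative, and the other alternatives were a filter on cells, contig UMIs, merged copies, other clonotype definitions, minimums and folds. No deposited column was left unmapped.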

Additional observations from a re-analysis of the deposited data

Results flagged for a closer look

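Trav7d-5 stood out because its clonotype share was higher in cells with a Foxp3 UMI in one library and lower in the other. The ratio of cells with over cells without a Foxp3 UMI was 1.7 (0.504 to 4.56) in the WT-labelled library, from 5 and 23 clonotypes, and 0.347 (0.0652 to 1.2) in the dKO-labelled one, from 3 and 17. The difference was not tested, and both intervals include 1.

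Signal outside the contigs was found for 17 Trav and Traj genes that no contig named but that had over 3 UMIs in the RNA tables. Trav8-2 had 64 and 172 UMIs, Trav3-1 138 and 107, Trav3-4 25 and 105 and Traj19 31 and 23, WT-labelled library first.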

How the results depend on the processing

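No paired analysis was possible because each genotype had 1 library. For the same reason leaving out a replicate was not possible, and depth limits every segment with few clonotypes. Of 120 recomputed counts, shares, correlations and mean lengths, 99 stayed near their value and 21 moved. Only the rank correlations of Trav and Traj could be scored as changing direction, and 0 did. A mean CDR3 length was scored as near when it moved by less than the SD among clonotypes, a wide limit. Between libraries, 219 of 220 recomputed ratios of the 20 segments with the highest and lowest ratios kept their direction, and the ratio of Trav10n turned to 1.02 with D and N names merged. With contigs of at least 3 UMIs the ratio of Trav6-3 moved to 4.73, from 3 and 17 clonotypes. Joining cells without a TRB contig to clonotypes of the same alpha, and leaving out barcodes of both libraries, were chosen after seeing the data, and neither moved a count by over 1.5 times.

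With D and N names merged, 13 of 34 Trav groups were past 1.5-fold between libraries by clonotypes (30.6% of all 108 segments) and 20 of 36 Trav by cells (50% of all segments). Counted by alpha rearrangement alone, 8 of 37 Traj segments were (29.5% of all 122 segments). At a 2-fold limit, 10 of 54 Trav and 2 of 41 Traj segments were past it by clonotypes (11.7% of all segments) and 9 of 42 Traj by cells (30.9% of all segments). Between cells with and without a Foxp3 UMI, the 2-fold limit left 7 of 40 Trav and 6 of 34 Traj segments by clonotypes (13.1% of all segments) and 17 of 48 Trav by cells (24.1% of all segments) in the WT-labelled library. In the dKO-labelled one it left 3 of 39 Trav and 5 of 33 Traj by clonotypes (9.71% of all segments) and 6 of 42 Trav and 6 of 34 Traj by cells (13% of all segments). With at least 2 Foxp3 UMIs, 12 of 32 Trav segments were past 1.5-fold by clonotypes (43.3% of all segments) and 14 of 44 Trav by cells (37.5% of all segments) in the WT-labelled library. Without likely doublets, 12 of 32 Trav and 7 of 32 Traj segments of that library were by clonotypes (26.8% of all segments). With cells thinned to 1000 UMIs, 19 of 40 dKO-labelled Trav segments were by cells (34.9% of all 106 segments).

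The rank correlation of Trav and Traj was -0.31 by cells in the WT-labelled library, and -0.175 and -0.288 with copies placed nearest the Traj segments. With at least 2 Foxp3 UMIs the WT-labelled ratios of Traj4 and Traj6 turned to 0.971 and 0.728 and the dKO-labelled ratio of Traj6 to 0.958. With thinning the WT-labelled ratio of Traj6 was 0.641. The cause was not tested. With at least 2 Foxp3 UMIs, or with thinning, no WT-labelled clonotype with Trav11 had Foxp3, and no ratio was given.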

Other observations

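In cells with a Foxp3 UMI the effective number of Trav segments by cells was 53.3 in the WT-labelled and 21 in the dKO-labelled library, and of Traj segments 34.1 and 17. By clonotypes the Trav numbers were 54.5 and 43.6. In cells without a Foxp3 UMI the Trav numbers by cells were 36.5 and 29.1. The rank correlation of Trav and Traj places was -0.22 over 197 WT-labelled and -0.50 over 661 dKO-labelled clonotypes with a Foxp3 UMI, and -0.43 and -0.45 over those without.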
